A study of Mus musculus with 10 samples.

Results

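VECA is 1 of 16 cell classes that the study's authors gave to single cells of the mouse hippocampus. Its members were taken by that name alone: 371 of 68914 annotated cells (0.538%), out of 108266 barcodes in 10 libraries. They are the whole of cluster 2, which held 0 cells of any other class. The annotation does not spell the name out. In mouse brain atlases VECA is the usual short form for arterial vascular endothelial cells, and it is read that way here. The table analysed here holds names and map positions but no gene values, so the endothelial markers Pecam1 and Cldn5 could not be read and the label was taken as given.

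Endothelial cells line blood vessels. In the brain the lining changes along the vessel from artery through capillary to vein, and arterial endothelium lies inside a coat of smooth muscle cells, while capillary endothelium lies beside pericytes. Most brain capillaries are sealed by tight junctions, which form the blood-brain barrier. The capillaries of the choroid plexus, the tissue that secretes cerebrospinal fluid, are instead leaky, and the barrier there is held by the choroid epithelium.

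The mice were 11-week-old wild-type C57BL/6 males, and both hippocampi were taken 3 days after each had been injected. The injection held vehicle alone in 4 libraries, the whole neurofilament light chain at 1 mg/ml in 3 (called FL-NfL) and only its coiled-coil domain at 1 mg/ml in 3 (called CC-NfL). This protein is a building block of the axon's skeleton, and the study asked how brain cells respond to it outside the axon. An unrelated protein was not among the injections, and the injection itself is common to all groups. The tissue was dissociated with actinomycin D, which blocks transcription, and live cells were sorted. A share below is therefore a share of the cells recovered, and fewer cells in the tissue cannot be told apart from fewer cells recovered. Nothing in the labels says that each library is 1 mouse, so p-values measure the spread between these libraries. Each library held 3150 to 14141 annotated cells. Libraries of batch b2 had more of their barcodes annotated than those of b1, by 32.4 percentage points (exact permutation p = 0.00476, the smallest that 6 against 4 libraries allow). Of 106835 barcode sequences, 1414 occurred in more than 1 library. That held for 9 VECA cells, and no 2 VECA cells shared a sequence.

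VECA cells were few and very unevenly spread over the libraries, in every group. The vehicle libraries 1 to 4 held 51, 5, 108 and 31 VECA cells, which is 1.32%, 0.152%, 1.11% and 0.352% of their annotated cells. Vehicle libraries 1 and 3 alone supplied 159 of the 371 cells (42.9%). FL-NfL libraries 1 to 3 held 5, 19 and 54 VECA cells, or 0.118%, 0.603% and 0.477%. CC-NfL libraries 1 to 3 held 6, 26 and 66, or 0.139%, 0.432% and 0.467%. Vehicle libraries 1 and 3 lay above all 6 NfL libraries, and vehicle libraries 2 and 4 lay within their range, so the groups overlapped.

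**Figure D1:**
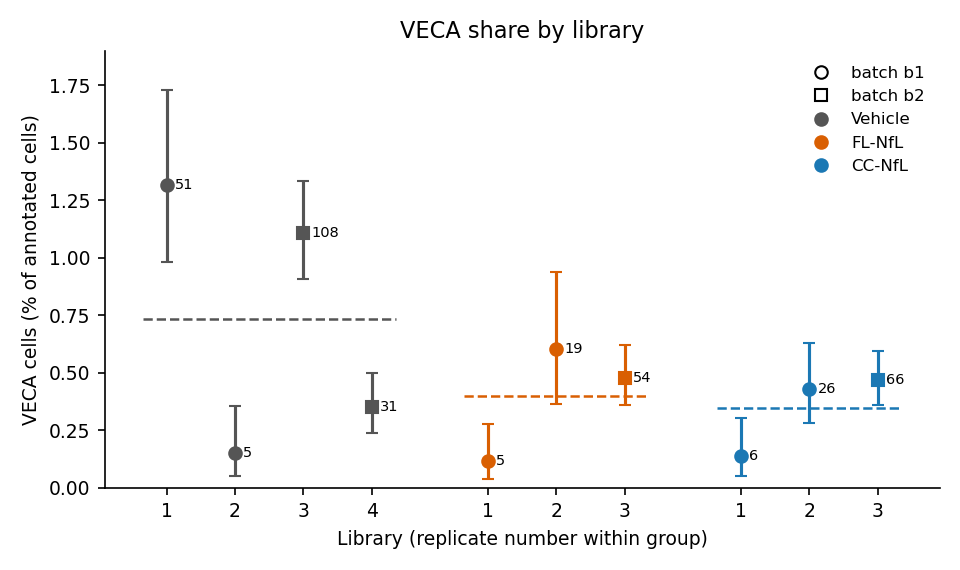
VECA cells as a percentage of annotated cells in each library, with exact 95% intervals (Clopper-Pearson, counting error only), the number of VECA cells beside each point, and the group mean as a dashed line. Vehicle libraries 1 and 3 stand at 1.32% and 1.11%, and the other 8 libraries lie between 0.118% and 0.603%.

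The spread was far wider than counting gives. Exact 95% intervals, which cover counting error only, ran from 0.982% to 1.73% in vehicle library 1 and from 0.0494% to 0.354% in vehicle library 2, 2 libraries of the same group and batch. Over all 10 libraries the highest share was 11.1 times the lowest, and the variance was 16.8 times the mean binomial variance. Relative to its mean, the SD of VECA was 0.782, ranked below NPC, neural progenitor cells (0.916), and VSMC, vascular smooth muscle cells (0.796), and above the other 13 classes. BMEC, read as brain microvascular endothelial cells and so the other endothelial class, stood at 0.341, and pericytes at 0.376.

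Neither protein was followed by a tested change of the VECA share. The share averaged 0.732% ± 0.566 after vehicle (SD, n = 4), 0.399% ± 0.251 after FL-NfL (SD, n = 3) and 0.346% ± 0.180 after CC-NfL (SD, n = 3). In limma, with group and batch as terms and adjustment over all 16 classes, the log2 odds ratio against vehicle was -0.58 for FL-NfL (SE 0.87, 95% interval -2.57 to 1.4, adjusted p = 0.993). For CC-NfL it was -0.69 (SE 0.87, 95% interval -2.68 to 1.30, adjusted p = 0.827 in limma). The intervals leave room for a change of more than 2 log2 units downward. Both contrasts use the same 4 vehicle libraries. Without vehicle library 1 the estimates became 0.13 and 0.03, so the sign rested on that library. In the FL-NfL contrast limma called 2 of 16 classes (12.5%), macrophages and other immune cells, and in the CC-NfL contrast 0 of 16 (0%), with 3 at an unadjusted p under 0.05 and 0 called by a quasi-binomial model. The FL-NfL count was 0 without FL-NfL library 3 and 1 without FL-NfL library 1 or 2 or vehicle library 1, 3 or 4. It was also 0 in batch b1 only and 1 over all barcodes. The CC-NfL count rose to 2 without CC-NfL library 1, and to 2 without the 3 libraries numbered 1. VECA was not among those classes.

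The proteins were also set against each other and pooled. FL-NfL against CC-NfL gave 0.11 (SE 0.92, 95% interval -2.0 to 2.21, adjusted p = 0.918 in limma). There 0 of 16 classes were called (0%), with 1 at an unadjusted p under 0.05 and 0 called by the quasi-binomial model. Both proteins against vehicle gave -0.64 (SE 0.74, 95% interval -2.33 to 1.05, adjusted p = 0.823 in limma), with 2 of 16 classes called (12.5%), neither of them VECA. That count was 0 without vehicle library 3 or 4, FL-NfL library 3 or CC-NfL library 3. It was 1 without vehicle library 1, FL-NfL library 1 or 2 or CC-NfL library 2. In batch b1 only it was 0, and over all barcodes or on the arcsine square root scale it was 1. It was also 0 with the replicate number as a block (adjusted p = 0.0852 in limma for each of the classes Macrophage and Other immune cells). Within batch b1 the mean VECA share was 0.734% in vehicle, 0.361% in FL-NfL and 0.285% in CC-NfL libraries. Within b2 it was 0.729% in vehicle libraries, and the single FL-NfL and CC-NfL libraries stood at 0.477% and 0.467%. Exact permutation of the percentages gave p = 0.40 for FL-NfL, 0.371 for CC-NfL and 0.210 for both together, where the smallest possible values are 0.0286, 0.0286 and 0.00476.

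Batch was measured in the same fit. The VECA log2 odds were 0.65 higher in b2 than in b1 (SE 0.74, adjusted p = 0.720 in limma), which did not pass. With 1 library left out the estimate ran from 0.184 (without vehicle library 2) to 1.19 (without vehicle library 1), and without FL-NfL library 1 or vehicle library 3 it was 0.378 or 0.411. Over all barcodes it was 1.41. VSMC alone passed for batch (1 of 16 classes, 6.25%), with a log2 odds ratio of 1.77 (SE 0.35, adjusted p = 0.0142 in limma). It no longer passed without vehicle library 3 (1.67, adjusted p = 0.0602 in limma) or FL-NfL library 3 (1.58, adjusted p = 0.128 in limma), and over all barcodes 2 classes passed, VSMC and astrocytes. VECA cells per VSMC cell averaged 2.83 ± 2.42 in b1 (SD, n = 6) and 1.01 ± 0.362 in b2 (SD, n = 4). VECA cells per VSMC cell were 7.29 and 0.833 in the vehicle libraries of b1 and 1.29 and 0.596 in those of b2.

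VECA was next set against the other vessel classes of the same library, which removes the immune cells from the denominator. In vehicle libraries 1 to 4 there were 83.6, 9.62, 65.1 and 26.5 VECA cells per 100 BMEC. FL-NfL libraries 1 to 3 had 5.81, 44.2 and 34.0, and CC-NfL libraries 1 to 3 had 27.3, 35.1 and 69.5. The lowest vehicle and FL-NfL libraries lay below every CC-NfL library, and the highest of all was a vehicle library. As log2 ratios the means were -1.51 ± 1.36 after vehicle (SD, n = 4), -2.23 ± 1.53 after FL-NfL (SD, n = 3) and -1.27 ± 0.66 after CC-NfL (SD, n = 3). No contrast passed: exact permutation p was 0.543 for FL-NfL, 0.743 for CC-NfL, 0.500 between the proteins and 0.781 for both proteins, each 0.781 after adjustment over the 4 contrasts.

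Shares of VECA overlapped in all 4 contrasts. The shares of 2 of 16 classes did not overlap for FL-NfL against vehicle (12.5%), 2 for CC-NfL against vehicle (12.5%), 3 between the proteins (18.8%) and 1 for both together (6.25%). BMEC was among those of CC-NfL: all 3 of its libraries lay below the 4 vehicle libraries, between 0.509% and 1.23% against 1.33% to 1.70%, without passing the test (log2 odds ratio -1.07, SE 0.38, adjusted p = 0.174 in limma). The share of VECA among all vascular and stromal cells (VECA, BMEC, pericytes, VSMC and VLMC, the leptomeningeal fibroblast-like cells) was 26.3%, 4.31%, 21.1% and 10.2% in vehicle libraries 1 to 4. It was 4.39%, 16.1% and 12.3% after FL-NfL and 9.09%, 11.8% and 17.7% after CC-NfL. All 6 NfL libraries lay inside the vehicle range. Exact permutation p was 0.543 for FL-NfL and 0.714 for CC-NfL, 0.714 after adjustment for each.

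Libraries rich in VECA were rich in choroid cells, and no such relation was detected with BMEC, the other endothelial class. Choroid cells made up 15.4%, 3.47%, 12.1% and 2.93% of cells in vehicle libraries 1 to 4, 2.87%, 11.1% and 3.6% in FL-NfL libraries 1 to 3, and 3.28%, 7.80% and 9.62% in CC-NfL libraries 1 to 3. Vehicle libraries 1 and 3, the richest in VECA, were also the richest in choroid cells, and 3 of the 5 libraries with a choroid share under 4% had the 3 lowest VECA shares. Across the 10 libraries Pearson's r was 0.895 (permutation p = 0.00016, 0.00240 after adjustment over 15 classes) and Spearman's rho 0.927 (permutation p = 0.00032, 0.00480 adjusted). Without vehicle libraries 1 and 3, the 2 farthest from the median choroid share, r was 0.765. In the 6 libraries of batch b1 r was 0.968 (exact permutation p = 0.00139, 0.0208 adjusted) and rho 1.00 (exact permutation p = 0.00278, 0.0417 adjusted). Batch b2 holds only 4 libraries, too few for a value.

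VLMC was the other class that passed by rank. Its rho with VECA was 0.903 (permutation p = 0.00082, 0.00615 adjusted) and its r 0.672 (permutation p = 0.0334, 0.251 adjusted), with r of 0.772 without FL-NfL libraries 1 and 2. Within b1 its rho was 0.886 (exact permutation p = 0.0333, 0.219 adjusted) and r 0.606 (exact permutation p = 0.224, 0.539 adjusted). With 6 libraries even a rho of 1.00, that of choroid cells, reached only 0.0417 after adjustment of its exact permutation p. The missing call therefore cannot decide whether the relation by rank holds within that batch. In FL-NfL library 1 no VLMC was counted (0 cells), a count that leaves room for at most 0.0711%. By rho 2 of 15 classes passed (13.3%) and by r 1 of 15 (6.67%). BMEC stood eighth of 15, with rho 0.115 (permutation p = 0.759, 0.813 adjusted) and r 0.236 (permutation p = 0.524, 0.604 adjusted).

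**Figure D2:**
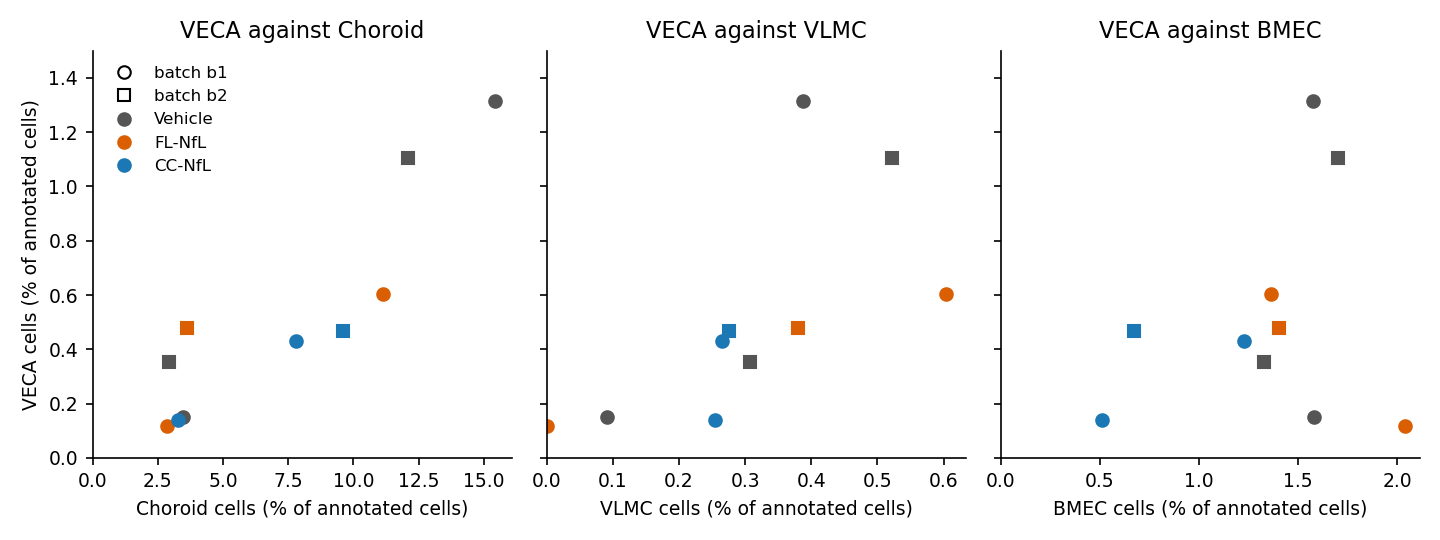
VECA share of each library against its share of choroid cells, VLMC and BMEC, all as a percentage of annotated cells, with 1 point per library, coloured by group and shaped by batch. VECA follows the choroid share (r 0.895) and, by rank, the VLMC share (rho 0.903), while the BMEC panel shows no such order (rho 0.115).

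The mural cells that surround vessels lay between these. Pericytes had rho 0.612 (permutation p = 0.0658, 0.247 adjusted) and r 0.462 (permutation p = 0.177, 0.508 adjusted), with r of 0.043 without FL-NfL library 1 and vehicle library 1. VSMC, the coat of arteries, had rho 0.430 (permutation p = 0.220, 0.584 adjusted) and r 0.395 (permutation p = 0.248, 0.508 adjusted). Reelin neurons came next after VLMC by rank, with rho 0.648 (permutation p = 0.0483, 0.242 adjusted) and r 0.593 (permutation p = 0.0715, 0.357 adjusted). On residuals after group and batch their rho was 0.830 (permutation p = 0.00428, 0.0214 adjusted), which passed. The lowest ranks were those of NPC (rho -0.309, r -0.03) and other immune cells (rho -0.236, r -0.32), with adjusted permutation p-values of 0.787 for each rho. Whether the relation with choroid cells is stronger than that with BMEC was not tested. Choroid cells themselves had rho 0.758 with VLMC, 0.636 with pericytes, 0.261 with VSMC and 0.042 with BMEC, given without a test. The relations of VECA with choroid cells and with VLMC were thus not told apart. The reading of VECA as arterial rests on the name alone, beside a share that followed choroid cells and not detectably BMEC or VSMC. Which vessels the cells came from, those of the choroid plexus included, was not tested.

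The choroid class joins 3 clusters, and they did not move alike with VECA. Cluster 18 had r 0.936 (permutation p = 0.00116, 0.0360 adjusted over 31 clusters) and rho 0.806 (permutation p = 0.0070, 0.108 adjusted), with r of 0.561 without vehicle libraries 1 and 3. Cluster 5, the largest with 3260 cells, had r 0.690 (permutation p = 0.0236, 0.321 adjusted) and rho 0.745 (permutation p = 0.0173, 0.179 adjusted). Cluster 12, with 133 cells, had r -0.32 and rho -0.382 (permutation p = 0.361 and 0.280). By r 1 of 31 clusters passed (3.23%), cluster 18, and by rho also 1 of 31 (3.23%), cluster 22, which is the whole of VLMC.

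VECA cells per 100 choroid cells varied less than the VECA share did. In vehicle libraries 1 to 4 there were 8.53, 4.39, 9.14 and 12, after FL-NfL 4.13, 5.41 and 13.2, and after CC-NfL 4.23, 5.53 and 4.85. The highest was 3.20 times the lowest, against 11.1 times for the share. In b1, 5 of 6 libraries lay between 4.13 and 5.53, with vehicle library 1 above them, and 3 of 4 libraries of b2 lay at 9.14 or more, with CC-NfL library 3 below. The mean was 5.37 ± 1.66 in b1 (SD, n = 6) and 9.81 ± 3.72 in b2 (SD, n = 4; exact permutation p = 0.0286). This ratio was chosen after the relation was seen and is given without a test between groups. The number of annotated cells also differed by batch: the libraries of b2 had more. The part of that number in the ratio was not tested.

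On the authors' t-SNE map, a flat drawing in which cells of similar expression lie close together, VECA formed a closed island. All of the 30 nearest annotated cells of every VECA cell were VECA, in every library, and so were all of the 10 and all of the 100 nearest. That isolation is shared: all 30 nearest cells of every BMEC and every choroid cell were of their own class too. The groups could therefore not be compared by this measure, and no class lay among the neighbours. The smallest distance from a VECA cell to a cell of another class was 4.43 map units, which is more than the longest extent of the island (2.98). For 324 cells (87.3%) the nearest cell outside was a choroid cell of cluster 5, and for 47 (12.7%) a microglial cell of cluster 21. The middle of BMEC lay 44.1 map units away, eighth of 15 classes, against 13.8 for choroid cells. Distances between islands on such a map carry little meaning and are given only to describe the picture.

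Inside the island, VECA cells from FL-NfL libraries lay to one side. The island is elongated, so the position of each cell was read along its long axis and across it, on the short axis, both found from all VECA cells without regard to group. Positive values on the short axis point to larger first map coordinates. The mean short-axis position of FL-NfL libraries 1 to 3 was 0.409, 0.253 and 0.255 map units. Vehicle libraries 1 to 4 stood at -0.130, -0.301, -0.040 and 0.062, and CC-NfL libraries 1 to 3 at -0.146, -0.117 and -0.092. All 3 FL-NfL libraries lay above all 7 others, while CC-NfL libraries lay inside the vehicle range.

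**Figure D3:**
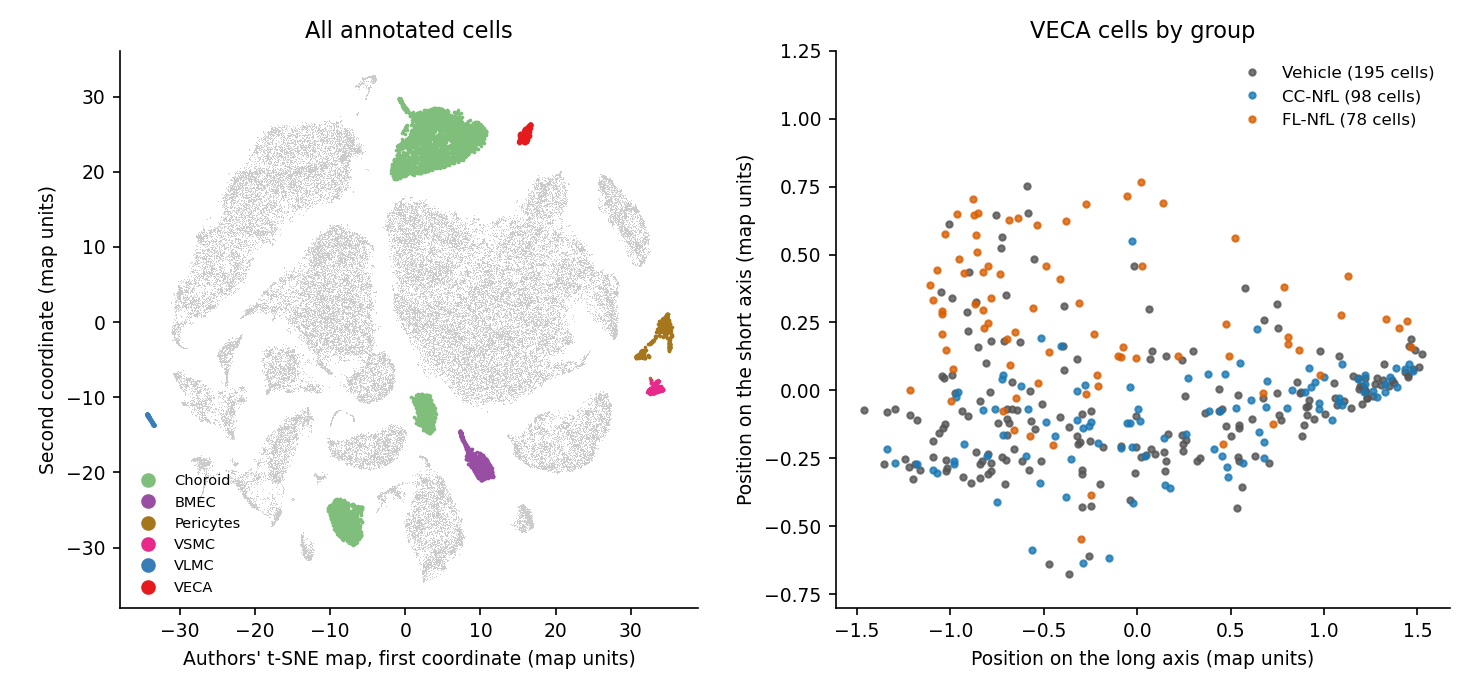
Left, the authors' map of all annotated cells in grey with the vascular, stromal and choroid classes in colour. Right, the VECA island turned onto its long and short axes in map units, with 1 point per cell coloured by group. FL-NfL cells lie higher on the short axis (mean of library means 0.306) than vehicle (-0.103) and CC-NfL cells (-0.119), with overlap between cells.

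The mean position was 0.306 ± 0.089 after FL-NfL (SD, n = 3), -0.103 ± 0.154 after vehicle (SD, n = 4) and -0.119 ± 0.027 after CC-NfL (SD, n = 3). FL-NfL differed from vehicle by 0.41 map units (exact permutation p = 0.0286, the smallest that 4 against 3 libraries allow, and 0.114 after adjustment over 2 axes and 4 contrasts). Exact permutation within batch gave p = 0.0556, the smallest that its 18 splits allow. FL-NfL differed from CC-NfL by 0.42 (exact permutation p = 0.10, the smallest possible, 0.20 adjusted). CC-NfL differed from vehicle by -0.02 (exact permutation p = 0.886). The separation appeared in both batches: in b1 the FL-NfL libraries averaged 0.331 and the vehicle libraries -0.216, and in b2 the FL-NfL library stood at 0.255 and the vehicle libraries at -0.040 and 0.062. This comparison was chosen after the map was seen, and no value passed after adjustment. With so few libraries, the p of 0.0286 for FL-NfL could pass adjustment only if CC-NfL separated from vehicle too. The missing call therefore cannot decide whether FL-NfL alone displaced the cells.

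Few cells stand behind some of these means. FL-NfL library 1 and vehicle library 2 rest on 5 VECA cells each and CC-NfL library 1 on 6. Without these 3 libraries the FL-NfL and vehicle groups still did not overlap, and differed by 0.29 map units. The libraries with most cells show the spread within a library: FL-NfL library 3 had positions from -0.384 to 0.714 with a median of 0.280 over 54 cells, vehicle library 3 from -0.676 to 0.524 with a median of -0.058 over 108 cells, and CC-NfL library 3 from -0.618 to 0.550 with a median of -0.064 over 66 cells. The cells of the groups overlapped, while the libraries' means did not. On the long axis FL-NfL libraries stood at -0.213, -0.086 and -0.350 and vehicle libraries between -0.035 and 0.153, again without overlap (difference -0.28, exact permutation p = 0.0286, 0.114 adjusted).

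**Figure D4:**
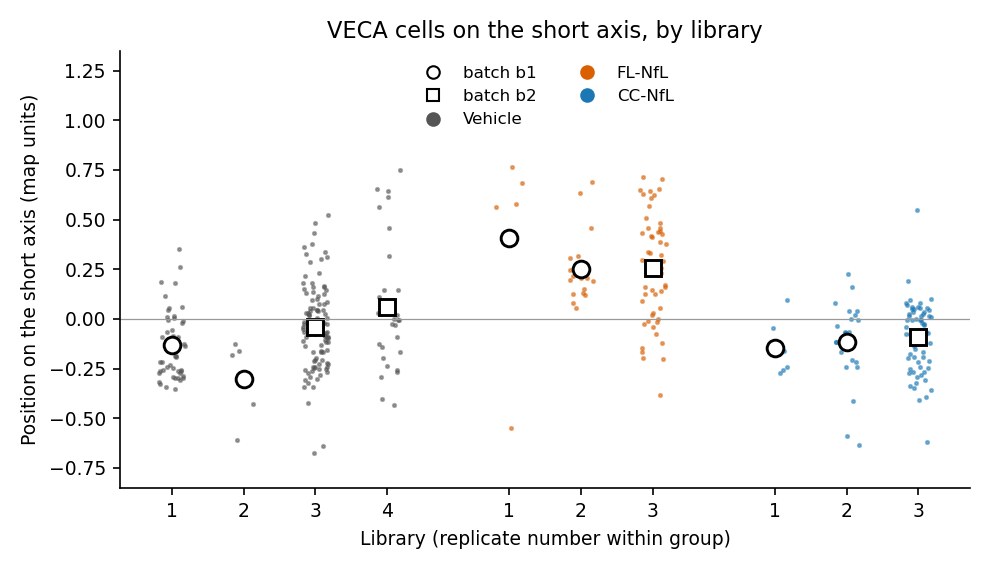
Position of every VECA cell on the short axis in map units, by library, with the mean of each library as an open symbol. The means of the 3 FL-NfL libraries (0.253 to 0.409) lie above those of the 4 vehicle libraries (-0.301 to 0.062) and the 3 CC-NfL libraries (-0.146 to -0.092).

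Neighbours inside the island were read from the same map positions. They are therefore no separate support for the displacement and are given as a description. For each VECA cell the 10 nearest VECA cells of other libraries were taken. Around the cells of FL-NfL libraries 1 to 3, 50.0%, 30.5% and 18.9% of these neighbours came from FL-NfL libraries, where 19.9%, 16.8% and 7.57% of the available cells did. Around the cells of CC-NfL libraries 1 to 3, 1.67%, 11.2% and 11.1% came from FL-NfL libraries, where 21.4%, 22.6% and 25.6% were available. FL-NfL neighbours were thus over-represented beside FL-NfL cells in 3 of 3 libraries and under-represented beside CC-NfL cells in 3 of 3. How often this occurs in other clusters was not compared. Vehicle libraries 1 to 3 had fewer FL-NfL neighbours than available (12.2%, 8.00% and 21.3% against 24.4%, 21.3% and 29.7%) and vehicle library 4 slightly more (25.5% against 22.9%).

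The displacement was set beside the same measure in all 26 clusters with at least 5 cells in every library. In units of the SD of a cluster's cells, VECA differed by 1.53 between FL-NfL and vehicle on the short axis and by 0.338 on the long axis. The SD was taken over all cells of a cluster, those of FL-NfL included. The next largest short-axis sizes were 0.40 for other immune cells and 0.365 for macrophages, and BMEC stood at 0.095 and pericytes at 0.090. Over both axes the second largest was the macrophage cluster on its long axis, at 0.836. Library means did not overlap in 2 of the 26 clusters on the short axis (7.69%) and in 4 of 26 on the long axis (15.4%), so absence of overlap alone was not rare. Between FL-NfL and CC-NfL the short-axis size was 1.59 for VECA and 0.393 for pericytes, the next, with 3 of 26 clusters not overlapping (11.5%). Between CC-NfL and vehicle VECA was among the 23 of 26 clusters whose library means overlapped on the short axis (3 did not, 11.5%). With both proteins pooled, VECA also overlapped with vehicle on either axis, where 1 of 26 clusters did not (3.85% on each). On the long axis VECA was the 1 cluster of 26 (3.85%) whose FL-NfL and CC-NfL libraries did not overlap, and 2 of 26 clusters, without VECA, did not overlap between CC-NfL and vehicle (7.69%).

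**Figure D5:**
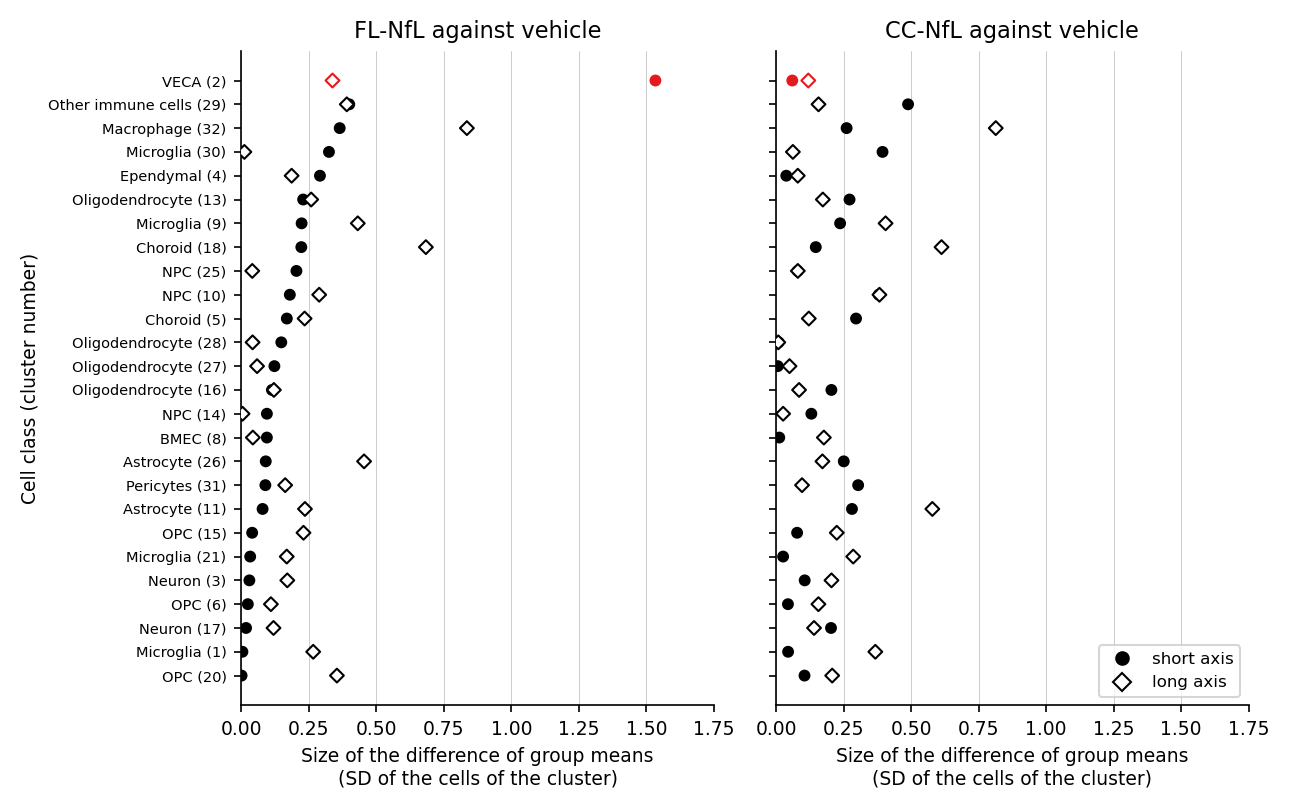
Size of the difference of group means on the short axis (filled circles) and long axis (open diamonds) of 26 clusters, in SD of the cells of the cluster, with VECA in red. After FL-NfL the short-axis value of VECA (1.53) stands apart from all others, and after CC-NfL it does not.

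Which genes lie behind the displaced position was not analysed here, since positions on the map are the only trace of expression in the table. Whether VECA differs from the other clusters in this measure was not tested, and the islands differ in size and shape. Cell depth and RNA quality by cell were not among the columns, so their part in the position was not tested.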

How the data were processed

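Droplet 3′ single-cell RNA sequencing was done on live-sorted cells of 10 mouse hippocampus samples, 4 vehicle, 3 FL-NfL and 3 CC-NfL, in the batches b1 and b2 of the labels. The submitters' processing notes name Cell Ranger 6.0.1 and the build GRCm38. How cells were filtered, clustered, named and mapped was not given in the sources used here. Per barcode, the deposited table gives the sample, condition, batch, cluster number and class, and t-SNE positions, a score without a unit set by the authors. Condition and batch matched the labels in all 371 VECA cells. Barcodes without annotation were left out of the shares, and doublet treatment is not given.

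Cells were counted per library, and the library was the replicate. With 0.5 added to each count, log2 odds went into limma 3.58.1 under R 4.3.3. Its terms were group and batch, and classes averaging 10 or more cells a library entered (16 of 16), with Benjamini-Hochberg adjustment and a threshold of 0.05. Single values were compared by two-sided exact permutation over all splits and within batch. Correlations used 100000 permutations, or all of them where 6 libraries were used. P-values over libraries measure the spread between these libraries. The test code was tested on simulated data. VECA was chosen, and the lists and tests were written, with earlier results of these data known. Positions within the island and cluster correlations were added after the table was seen. The classes named were the vascular and stromal ones and, for correlations, the 3 highest and 2 lowest by rho. Choroid clusters and the clusters named for map position were chosen after their values were seen. Whether replicate numbers pair the samples was checked: 7 of 9 same-numbered pairs had deviations correlated over 0.1 (range -0.15 to 0.538). Same-numbered libraries also share a batch, and on residuals after group and batch their correlations ran from -0.337 to 0.543. The check did not decide the matter, and the numbers were not taken as pairs in the main tests.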

Additional observations from a re-analysis of the deposited data

Results flagged for a closer look

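Each measure of VECA was screened for a library far from the others of its group, in the 4 vehicle libraries and in the 6 NfL libraries. Chance alone marks about 1 in 20 such groups, and 12 groups were screened. The log2 ratio of VECA to BMEC in FL-NfL library 1 was -3.98, the lowest of the 6 NfL libraries, with a gap to the next of 0.632 of the whole range. That library held 5 VECA cells and 28.7% of its barcodes were annotated, the lowest share of the 10 libraries. The number of VECA cells per 100 choroid cells in FL-NfL library 3 was 13.2, the highest of the 6 NfL libraries, with a gap of 0.846 of the range. The other 5 NfL libraries lay between 4.13 and 5.53.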

How the results depend on the processing

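The group contrasts and the batch contrast comprise 17 comparisons with a test, and under 245 alternatives 0 passed the adjusted threshold by any tool run. Many exact permutation alternatives could not pass at any effect size. Between the proteins the smallest possible p is 0.10. For 1 protein against vehicle, leaving out a library of either group keeps p at 0.0667 or more. In batch b1 alone or in replicate blocks no exact p can fall under 0.05. For these a missing call shows nothing. With all libraries, the smallest p of 0.0286 for 1 protein against vehicle passes adjustment only if the other protein separates from vehicle too. Signs were less stable. The log2 odds ratio of VECA ran, leaving out each library in turn, from -1.20 to 0.13 for FL-NfL, -1.31 to 0.0271 for CC-NfL, -0.48 to 0.74 between the proteins and -1.26 to 0.0808 for both, and turned positive against vehicle without vehicle replicate 1. Without the 3 libraries numbered 1 (added after seeing the data) these were 0.54 for FL-NfL, 0.28 for CC-NfL and 0.41 for both. Over all barcodes, FL-NfL against CC-NfL was -0.11. The batch estimate ran from 0.184 to 1.19 over left-out libraries and was 1.41 over all barcodes and 0.265 in the quasi-binomial model. The VSMC batch call was lost on the arcsine square root scale (0 classes called) and without the 3 libraries numbered 1 (0 called). The log2 ratio to BMEC ran over left-out libraries from -1.30 to 0.15 for FL-NfL, -0.34 to 0.66 for CC-NfL and -0.82 to 0.20 for both, and the percentage of vascular and stromal cells from -6.31 to 1.02 for CC-NfL, -7.28 to 0.0441 for both and -4.53 to 1.33 between the proteins. The short-axis difference stayed positive for FL-NfL against vehicle under all alternatives run (0.34 to 0.46 over left-out libraries, and 0.24 on the first map coordinate, where the groups overlapped). For CC-NfL it ran from -0.0822 to 0.0388 over left-out libraries and was 0.0303 on the first map coordinate. The number of classes correlated with VECA by rho was 3 on residuals after group and batch (choroid, VLMC and Reelin neurons). It was 2 with each library left out in turn. Where fewer libraries enter, it was 1 in batch b1 only (choroid) and 1 in the NfL libraries only (VLMC). There choroid had rho 0.829 (adjusted exact permutation p = 0.438). The rho of BMEC was -0.20 in batch b1 only and -0.0667 to 0.533 over left-out libraries, and that of other immune cells 0.086 in the NfL libraries only and -0.43 to 0.05 over left-out libraries. For NPC it ran from -0.667 to -0.083, for VSMC from 0.217 to 0.65, for pericytes from 0.467 to 0.783 and for Reelin neurons from 0.567 to 0.80. With the replicate number as a block, the log2 odds ratio was -0.90 for FL-NfL, -1.0 for CC-NfL and -0.95 for both, with vehicle replicate 4 alone in its block. The replicate block changed no limma call of VECA. It ended the 2 class calls for both proteins against vehicle (0 called) and kept the count of 2 for FL-NfL. It moved the short-axis difference to 0.463 for FL-NfL and 0.0388 for CC-NfL. By deviations, 4 of 10 libraries correlated best with one of their own number. The causes of these changes were not tested. In 3 libraries the VECA share rests on 5 or 6 cells.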
